A study of Mus musculus with 12 samples.

Results

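The genes described here are 37 genes of the citrate cycle and of the steps that bring pyruvate into it, chosen by name, out of the 40690 gene identifiers in the deposited table. All 37 were found, and each was at 1 CPM (counts scaled to the same total per library) or above in 6 or more libraries, the limit that left 14336 genes to test. The filter therefore removed no member, and the member with the fewest reads in any library still rested on 103. The RNA came from right atria of adult mice, in 6 libraries with the genotype label Control, from littermates, and 6 with the label iNICD, in which the title of the series places a transient activation of Notch. Both groups were 2 to 3 months old when doxycycline chow was started, received it for 3 weeks, and were sampled with no time off the drug. The labels do not say what drives the transgene, which alleles the controls carry or whether each library holds 1 animal, so p-values describe the spread between these libraries, which may be partly technical.

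The library depth was 12015650 to 22716190 reads. Notch1, the receptor from which the intracellular domain named in the genotype derives, was at 192 to 293 CPM in the controls and 3064 to 5358 CPM in iNICD, so each library carried the level of its label. The summed level of the atrial markers Nppa, Myl7, Myl4 and Sln was 18979 to 23047 CPM in controls and 7649 to 11072 CPM in iNICD, and the ventricular light chain Myl2 was at 50.3 CPM or less in all 12 libraries. Some libraries stood apart. Control 4 had the lowest value of its group in 44.4% of all genes tested. Gm42418, an RNA that is low in most of these libraries, was at 20234 CPM in control 3, 30814 CPM in iNICD 3 and 21474 CPM in iNICD 5, and at 4790 CPM or less in the others. Xist, the RNA of the inactive X chromosome, was high (464 to 649 CPM) in controls 1, 2, 3 and 5 and iNICD 1, 2 and 3 and low (7.07 to 13.5 CPM) in the other 5 libraries. High and low Xist thus stood at 4 and 2 libraries in controls and 3 and 3 in iNICD, so neither group came from a single animal. The library iNICD 4 had the highest citrate cycle levels of its group, as given below.

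The heart draws most of its ATP from mitochondria. Pyruvate, made from glucose and lactate, crosses the inner mitochondrial membrane through a carrier and is turned into acetyl-CoA by the pyruvate dehydrogenase complex, whose activity is set by kinases that switch it off and phosphatases that switch it on. Acetyl-CoA from pyruvate, fatty acids and ketone bodies is joined to oxaloacetate by citrate synthase, and the cycle that follows yields the reduced carriers used by the respiratory chain. Pyruvate carboxylase and malic enzymes exchange carbon between pyruvate and the cycle, and the malate-aspartate shuttle moves reducing equivalents from the cytosol into mitochondria.

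Few of the 37 genes differed between the groups, and the differences were small. Pdk1, a kinase that inhibits pyruvate dehydrogenase, and Me3, the mitochondrial malic enzyme that uses NADP, fell in iNICD, while Cs, citrate synthase, and Suclg2, the subunit that makes succinyl-CoA ligase specific for GDP, rose (limma on log2(CPM + 0.5), Benjamini-Hochberg adjusted p under 0.05 over all genes tested). These 4 are 10.8% of the members, beside 6.71% of all genes tested, made up of 4.87% higher and 1.84% lower in iNICD. The split of all calls was 72.6% higher in this fit and 61.6% with median-of-ratios scaling. With so few genes the share is not a result about the pathway. The same 4 were called by DESeq2 on the recovered reads, and edgeR called Pdk1, Me3 and Suclg2. Groups did not overlap in 3 members, Pdk1, Me3 and Suclg2, which is 8.11% of the members beside 4.59% of all genes tested (3.46% higher and 1.13% lower in iNICD).

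The other 33 members did not pass. Of all 37, 10 had an unadjusted limma p under 0.05, which is 27.0% beside 18.8% of all genes tested. In this fit the log2 fold changes ran from -0.44 for Pcx to 0.34 for Pdk3 (Pdk4 was lowest with edgeR, at -0.86, and with DESeq2, at -0.87), with 21 above 0 and 16 below. Their median was 0.038, beside 0.045 for all genes tested, and the median size without regard to sign was 0.118 beside 0.125. The median of all genes was -0.006 with median-of-ratios scaling. In 30 of the 37 the 95% interval of the log2 fold change lay within 0.5 on either side of 0. A simulation of this comparison over 14174 genes recovered 22% of genes changed 1.3-fold and 66% of those changed 1.5-fold. No smaller change was simulated, and 26 of the 37 members had a log2 fold change under 0.2 in size. The simulated libraries also had no shift shared by many genes. The lack of a call in a member therefore does not show that the groups were alike.

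**Figure D1:**
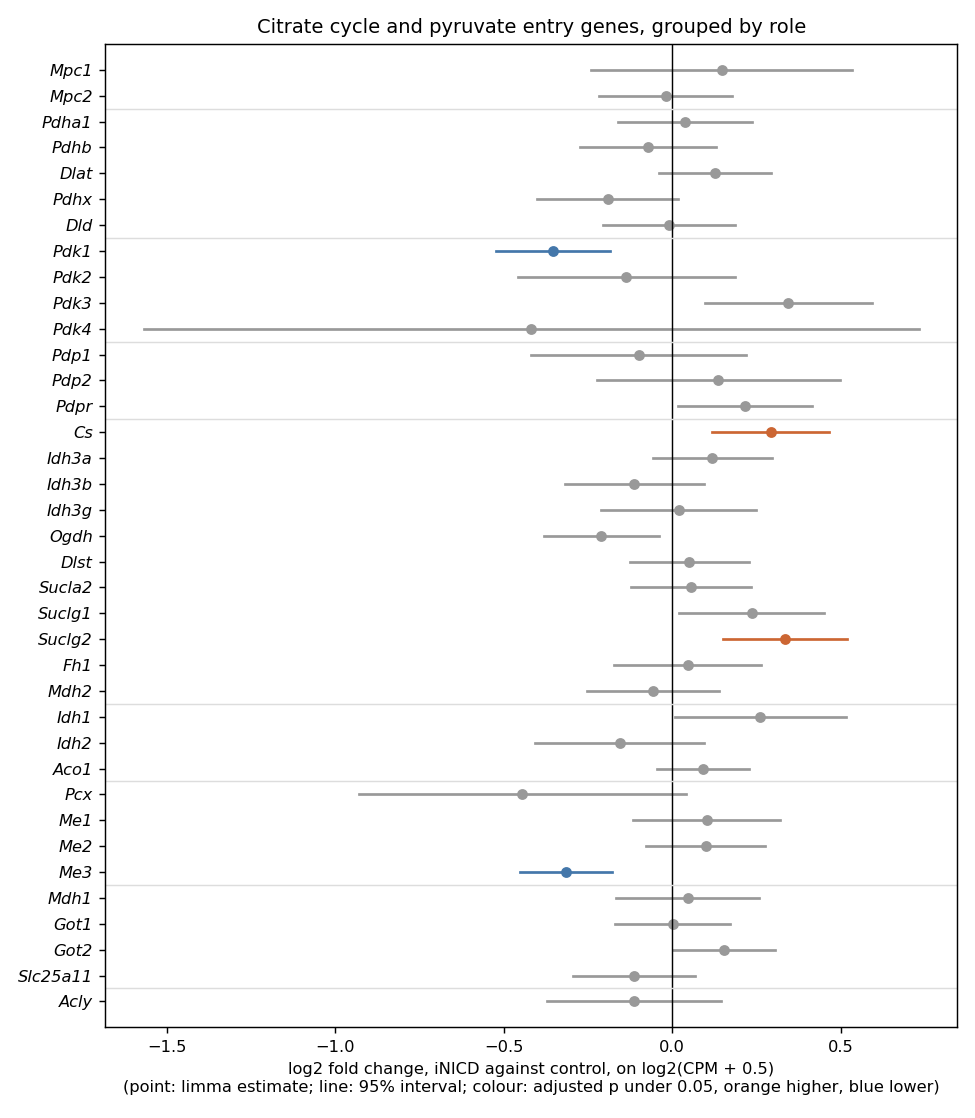
Log2 fold change of each of the 37 genes, iNICD against control, on the log2(CPM + 0.5) scale, grouped by role from the pyruvate carrier at the top to Acly at the bottom, with points for the limma estimate and lines for its 95% interval. Pdk1 and Me3 lie below 0 and Cs and Suclg2 above it in colour, the other 33 are grey, and Pdk4 has the widest interval (-1.57 to 0.73).

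The promoter windows of the 4 called genes are shown because these members passed the limma test. The Cs and Suclg2 calls were lost when some single libraries were left out. Each is 300 bases of RefSeq promoter sequence (GRCm38.p6), from 250 before to 50 after the annotated start, 5′ to 3′ on the strand of the gene. They are Pdk1 at chr2:71872974-71873273 (plus strand), Me3 at chr7:89632568-89632867 (plus), Cs at chr10:128337477-128337776 (plus) and Suclg2 at chr6:95718797-95719096 (minus). For Pdk1 the table holds 2 windows, and the one at the start in GENCODE M21 is shown. Capitals mark the letters TGGGAA or their reverse complement TTCCCA, the core bound by RBPJ, the DNA-binding partner of the Notch intracellular domain.
Pdk1: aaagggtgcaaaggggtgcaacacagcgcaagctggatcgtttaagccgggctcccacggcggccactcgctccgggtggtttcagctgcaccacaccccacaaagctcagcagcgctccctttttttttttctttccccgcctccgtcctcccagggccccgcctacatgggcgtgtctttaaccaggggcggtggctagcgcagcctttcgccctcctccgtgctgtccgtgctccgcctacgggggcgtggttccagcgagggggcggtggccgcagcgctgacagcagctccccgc
Me3: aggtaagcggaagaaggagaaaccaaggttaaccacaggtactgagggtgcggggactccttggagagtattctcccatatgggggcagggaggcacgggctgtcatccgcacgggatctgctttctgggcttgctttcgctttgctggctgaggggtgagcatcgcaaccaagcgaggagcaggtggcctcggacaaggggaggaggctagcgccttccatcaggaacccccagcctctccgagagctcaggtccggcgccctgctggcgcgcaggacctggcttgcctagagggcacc
Cs: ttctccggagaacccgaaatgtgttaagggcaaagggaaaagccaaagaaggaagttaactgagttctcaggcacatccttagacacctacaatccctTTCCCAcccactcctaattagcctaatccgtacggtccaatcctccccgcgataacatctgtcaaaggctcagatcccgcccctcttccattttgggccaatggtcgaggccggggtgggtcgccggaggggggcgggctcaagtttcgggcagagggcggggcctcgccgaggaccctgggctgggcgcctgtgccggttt
Suclg2: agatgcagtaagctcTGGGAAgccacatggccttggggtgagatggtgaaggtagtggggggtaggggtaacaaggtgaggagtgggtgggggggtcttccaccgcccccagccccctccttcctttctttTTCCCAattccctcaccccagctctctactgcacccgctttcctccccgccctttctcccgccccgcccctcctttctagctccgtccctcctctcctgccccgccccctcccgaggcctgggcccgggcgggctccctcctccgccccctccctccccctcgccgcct

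The RBPJ core was present 1 time in the Cs window, starting at base 99, and 2 times in the Suclg2 window, starting at bases 16 and 132, and not in the Pdk1 and Me3 windows. The core was found in 25.6% of all 32851 promoter windows and in 22.2% of the 45 windows of the 34 members that have one, so its presence in a window is common. The hypoxia response core was searched in both its forms because Pdk1 is a known hypoxia-responsive gene. The form ACGTG (or CACGT) was in none of the 4 windows, in 35.6% of the members' windows and in 19.6% of all windows. The form GCGTG (or CACGC) was found 2 times in the Pdk1 window and not in the other 3, in 51.1% of the members' windows and in 32.4% of all. The estrogen-related receptor element AAGGTCA (or TGACCTT), a motif of many mitochondrial genes, was in none of the 4 either, and in 4.44% of the members' windows beside 4.72% of all. All motifs were searched on both strands, and none overlaps another in the printed windows. A match says only that these letters are there.

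Pyruvate entry through the carrier did not differ by the test. Mpc2, one of the 2 carrier subunits, was at 85.7, 96.1 and 117.7 CPM (lowest, median and highest) in controls and 89.3, 95.2 and 118.5 CPM in iNICD, with a log2 fold change of -0.02 (95% interval -0.22 to 0.18). Mpc1, the other subunit, was at 8.10 to 19.8 CPM in controls and 12.6 to 18.8 CPM in iNICD, a log2 fold change of 0.15 whose interval ran from -0.24 to 0.53. The 6 and 6 libraries overlapped for both subunits. Within the libraries with high Xist the log2 difference of Mpc1 was 0.52, with overlap, and within those with low Xist it was -0.46, without overlap (17.6 to 19.8 CPM in 2 controls and 12.6 to 14.3 CPM in 3 iNICD). Groups this small separate often by chance, and Pdk1, Cs, Idh3g, Suclg2, Aco1, Me2, Me3 and Got2 were also without overlap there. The split was chosen after seeing the data, and the share of all genes tested was not counted. Per kb of exon, Mpc2 was the higher of the pair, at 67.7% ± 4.78 of their summed CPM per kb in controls and 65.0% ± 5.14 in iNICD (SD, n = 6).

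The 5 genes of the pyruvate dehydrogenase complex were likewise not called by limma, edgeR or DESeq2, and 0 of 5 had an unadjusted limma p under 0.05. Pdha1, the X-linked catalytic subunit that the kinases phosphorylate, was at 525, 621 and 659 CPM (lowest, median and highest) in controls and 518, 614 and 781 CPM in iNICD. Its log2 fold change was 0.04 (95% interval -0.16 to 0.24). The partner subunit Pdhb was at -0.07, the acetyl transfer core Dlat at 0.13, the dihydrolipoamide dehydrogenase Dld, which the 2-oxoglutarate complex shares, at -0.01, and Pdhx, which tethers Dld to the core, at -0.19 (all log2 fold changes). Pdhx came closest to a difference. It was at 84.9 to 106 CPM in controls and at 73.9 to 84.5 CPM in 5 of the 6 iNICD libraries, with the sixth, iNICD 4, at 110 CPM (limma adjusted p = 0.31, exact permutation p = 0.084). Pdha1 took 51.8% ± 3.12 of the summed CPM per kb of the 5 genes in controls and 52.8% ± 1.00 in iNICD (SD, n = 6), and Pdhx took 7.77% ± 0.765 and 6.73% ± 0.420.

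Among the 4 kinases that inactivate the complex, Pdk1 fell. Pdk1 (ENSMUSG00000006494, chromosome 2, 71873224 to 71903858 in GENCODE M21, GRCm38) was at 192, 226 and 266 CPM in controls (lowest, median and highest) and 166, 178 and 187 CPM in iNICD. All 6 iNICD libraries lay below the lowest control. Its mean went from 229 ± 26.6 to 178 ± 8.07 CPM (SD, n = 6), a log2 fold change of -0.35 (SE 0.08, limma adjusted p = 0.013, exact permutation p = 0.0022, the smallest that 6 against 6 libraries allow). The call was kept whichever of the 12 libraries was left out, with log2 fold changes of -0.40 to -0.31. Without the 3 libraries rich in Gm42418 the value was -0.36 with limma adjusted p = 0.068, in a fit that had 9 libraries. No other gene overlaps Pdk1 in GENCODE M21.

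Pdk3, the X-linked kinase of the family, had the opposite sign. It was at 17.6, 23.2 and 30.9 CPM in controls and 26.4, 29.6 and 31.1 CPM in iNICD, and all 6 iNICD libraries were above the median of the controls. The log2 fold change of 0.34 (95% interval 0.10 to 0.59) did not pass (limma adjusted p = 0.10, exact permutation p = 0.017). Of the 12 fits with 1 library left out it passed in 1, without control 6, the control with the highest Pdk3. The limma adjusted p was 0.021 there and up to 0.20 in the others. With the replicate number as block it passed (limma adjusted p = 0.0461), and without the 3 libraries rich in Gm42418 it did not (0.27). Pdk2, an isoform widely found in muscle and other tissues, was at 79.2 to 163 CPM in controls and 95.3 to 134 CPM in iNICD, a log2 fold change of -0.14 (95% interval -0.46 to 0.18).

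Pdk4, the kinase induced by fasting and fatty acids through PPAR receptors, was the most variable member. It was at 106, 153 and 886 CPM in controls (lowest, median and highest) and 85.6, 135 and 314 CPM in iNICD. The value of 886 CPM was control 4, and the other 5 controls lay between 106 and 225 CPM. The log2 fold change was -0.42 (SE 0.52, limma adjusted p = 0.74), and without control 4 it was 0.02 (limma adjusted p = 0.99), so its sign rested on that library. Angptl4, a secreted lipase inhibitor that PPAR receptors also induce, was highest in the same library of each group, at 42.7 CPM in control 4 and 34.7 CPM in iNICD 3. Per kb of exon, Pdk4 made up 81.6% of the summed kinase level in control 4 and 26.2% at the lowest among controls, and 26.3% to 59.1% in iNICD. The share of Pdk1 was 7.98% to 29.8% in controls and 14.1% to 25.7% in iNICD, and Pdk3 had the smallest share of the 4 in every library, at 2.36% to 10.4% in controls and 6.82% to 12.4% in iNICD.

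**Figure D2:**
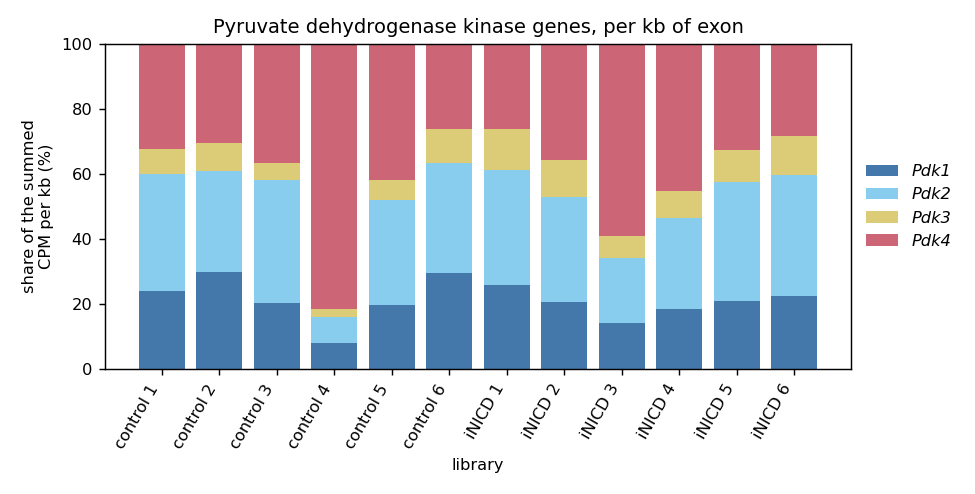
Share of Pdk1, Pdk2, Pdk3 and Pdk4 in their summed CPM per kb of exon (percent, vertical axis) in each of the 12 libraries (horizontal axis), as stacked bars. Pdk4 takes 81.6% in control 4 and 59.1% in iNICD 3, and Pdk3 is the thinnest band in all 12 libraries.

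The phosphatase genes did not pass. Pdp1, the calcium-sensitive catalytic subunit that is prominent in heart and muscle, was at 25.5 to 48.8 CPM in controls and 29.4 to 45.8 CPM in iNICD (log2 fold change -0.10), and Pdp2, the other catalytic subunit, at 12.4 to 23.8 and 15.6 to 27.5 CPM (0.14). Both were lowest among the controls in control 4. Pdpr, the regulatory subunit that restrains Pdp1, was at 85.9, 105 and 126 CPM in controls and 106, 123 and 146 CPM in iNICD. Every iNICD library was above the control median, and the log2 fold change was 0.22 (95% interval 0.02 to 0.41, limma adjusted p = 0.22, exact permutation p = 0.052). Pdpr overlaps 9430091E24Rik on the other strand, which was at 4.43 CPM on average, and reads of overlapping genes on the 2 strands cannot be told apart in these values.

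In the cycle itself 2 of 11 genes, Cs and Suclg2, were called higher and 0 lower by limma, beside 4.87% and 1.84% of all genes tested, and the Cs call was lost without any one of 10 of the 12 libraries. Citrate synthase joins acetyl-CoA to oxaloacetate and is often used as a measure of mitochondrial content. Cs (ENSMUSG00000005683, chromosome 10, 128337734 to 128362479) was at 656, 708 and 743 CPM in controls and 725, 851 and 1033 CPM in iNICD. The highest was iNICD 4, and the lowest iNICD library, iNICD 3, lay within the range of the controls. The mean went from 702 ± 34.4 to 864 ± 104 CPM (SD, n = 6), a log2 fold change of 0.29 (SE 0.08, limma adjusted p = 0.043, exact permutation p = 0.0065). This call was close to the threshold. When single libraries were left out it remained without control 6 or iNICD 3 and was lost without any of the other 10, with limma adjusted p from 0.019 to 0.10. It was also lost with median-of-ratios scaling (log2 fold change 0.24), with quantile normalization (0.27) and with edgeR (0.25). With the replicate number as block the call was lost as well (limma adjusted p = 0.0825). The one gene that overlaps Cs is a small nucleolar RNA, Gm23182, at 0.113 CPM.

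Succinyl-CoA ligase, the step that makes a nucleoside triphosphate directly, has an alpha subunit, Suclg1, and alternative beta subunits, Sucla2 for ADP and Suclg2 for GDP. Suclg2 (ENSMUSG00000061838, chromosome 6, 95473009 to 95718800) was at 20.4, 25.7 and 28.2 CPM in controls and 28.8, 32.1 and 35.1 CPM in iNICD. All 6 iNICD libraries were above the highest control. The log2 fold change was 0.34 (SE 0.09, limma adjusted p = 0.029, exact permutation p = 0.0022). Of single libraries left out, 5 kept the call, and it was lost without any one of controls 1, 3 and 5 and iNICD 1, 2, 3 and 4, with limma adjusted p from 0.026 to 0.068 and log2 fold changes from 0.27 to 0.37 over the 12. It was also lost without a filter and, in a fit of 9 libraries, without the 3 rich in Gm42418, where the log2 fold change was 0.37 (limma adjusted p = 0.085). With the replicate number as block the call was lost as well (limma adjusted p = 0.055).

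The other subunits of the ligase were at far higher levels. Sucla2 was at 144 to 207 CPM in controls and 167 to 197 CPM in iNICD (log2 fold change 0.06, 95% interval -0.12 to 0.24). Per kb of exon, Suclg2 was 11.4% ± 1.37 of the 2 beta subunits in controls, with a range of 9.62% to 13.2%, and 13.5% ± 0.753 in iNICD (SD, n = 6), with a range of 12.9% to 14.9%, so the ranges of the share overlapped. Suclg1 was at 186, 202 and 217 CPM in controls and 211, 222 and 334 CPM in iNICD, with iNICD 4 at the top. All 6 iNICD libraries were above the control median, and the log2 fold change of 0.24 (95% interval 0.02 to 0.45) did not pass (limma adjusted p = 0.21, exact permutation p = 0.011).

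Ogdh, the catalytic subunit of the 2-oxoglutarate dehydrogenase complex, leaned the other way. It was at 1425, 1507 and 1598 CPM in controls and 1119, 1293 and 1558 CPM in iNICD, and 5 of 6 iNICD libraries lay below the control median. The sixth was iNICD 4. The log2 fold change was -0.21 (SE 0.08, limma adjusted p = 0.15, exact permutation p = 0.019), and without iNICD 4 it was -0.26 with limma adjusted p = 0.039. Of the 12 fits with 1 library left out Ogdh passed in that 1 only (limma adjusted p up to 0.30). Dlst, the succinyl transfer core of the same complex, was at 390 to 449 CPM in controls and 392 to 537 CPM in iNICD (log2 fold change 0.05). Per kb of exon, Ogdh was 78.5% ± 1.61 of the summed level of Ogdh, Dlst and Dld in controls and 75.6% ± 1.86 in iNICD (SD, n = 6).

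The remaining cycle enzymes did not pass. Of the 3 subunits of the NAD-dependent isocitrate dehydrogenase, the catalytic Idh3a was at 276 to 322 CPM in controls and 264 to 371 CPM in iNICD (log2 fold change 0.12), the structural and regulatory Idh3b at 323 to 396 and 260 to 411 CPM (-0.11), and Idh3g at 437 to 607 and 432 to 636 CPM (0.02). Per kb of exon the 3 subunits kept the same order in both groups, Idh3g above Idh3b above Idh3a, with Idh3g at 53.7% ± 2.63 and 54.5% ± 1.69 of the sum (SD, n = 6). Fumarase, Fh1, was at 269 to 337 and 266 to 422 CPM (0.05), and the mitochondrial malate dehydrogenase Mdh2 at 404 to 455 and 319 to 511 CPM (-0.06). In each of these 5 genes the iNICD range was wider than the control range, and the highest iNICD value was that of iNICD 4.

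Isocitrate can also be oxidised with NADP, by Idh2 in mitochondria and Idh1 in the cytosol, and the cytosolic aconitase Aco1 supplies the latter and, without its iron-sulfur cluster, acts as an iron regulatory protein. Idh1 was at 23.7, 33.0 and 43.3 CPM in controls and 34.2, 38.9 and 40.7 CPM in iNICD, all 6 iNICD libraries above the control median. Its log2 fold change of 0.26 (95% interval 0.01 to 0.51) did not pass (limma adjusted p = 0.24, exact permutation p = 0.067). Idh2 was at 677 to 1006 CPM in controls and 638 to 983 CPM in iNICD (-0.16), and Aco1 at 53.7 to 62.4 and 58.8 to 66.7 CPM (0.09, 95% interval -0.05 to 0.23). Idh2 held 96.7% ± 0.538 of the summed CPM per kb of Idh1 and Idh2 in controls and 95.6% ± 0.645 in iNICD (SD, n = 6).

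Among the enzymes that exchange carbon between pyruvate and the cycle, Me3 fell. Me3 (ENSMUSG00000030621, chromosome 7, 89632392 to 89854359) was at 69.7, 74.1 and 81.3 CPM in controls and 55.8, 60.9 and 64.5 CPM in iNICD. All 6 iNICD libraries were below the lowest control, and the spread within each group was small, with a coefficient of variation of 5.30% in controls and 5.88% in iNICD. The mean went from 74.8 ± 3.96 to 60.1 ± 3.53 CPM (SD, n = 6), a log2 fold change of -0.32 (SE 0.06, limma adjusted p = 0.0069, exact permutation p = 0.0022). The call was kept without any single library (log2 fold changes of -0.34 to -0.29), and without the 3 libraries rich in Gm42418 the value was -0.30 with limma adjusted p = 0.058. Genes that overlap Me3 and are in the table were at 0.234 CPM or less.

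The other malic enzymes did not pass the test. Me1, the cytosolic enzyme that supplies NADPH for lipid synthesis, was at 21.7 to 25.9 CPM in controls and 21.9 to 33.4 CPM in iNICD (log2 fold change 0.10, 95% interval -0.12 to 0.32), and Me2, the mitochondrial enzyme that uses NAD, at 18.3 to 24.6 and 20.7 to 24.6 CPM (0.10, -0.08 to 0.28). Per kb of exon, Me3 was 35.6% ± 2.00 of the 3 malic enzyme genes in controls and 29.2% ± 2.74 in iNICD (SD, n = 6). The exon lengths used were 14.6 kb for Me3, 3.85 kb for Me1 and 7.25 kb for Me2. In CPM Me3 was the highest of the 3, so their order depends on these lengths. The ranges of that share, 32.0% to 38.1% and 26.3% to 33.1%, overlapped. Whether the 3 genes differ in their response was not tested.

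Pcx, pyruvate carboxylase, which refills the cycle with oxaloacetate and is abundant in fat and liver, had a log2 fold change of -0.44 and did not pass (SE 0.22, limma adjusted p = 0.32, exact permutation p = 0.11). It was at 37.7, 68.4 and 82.2 CPM in controls and 30.9, 43.7 and 64.8 CPM in iNICD, with all 6 iNICD libraries below the control median. Its level differed between libraries of high and low Xist. In the libraries with high Xist it was 67.2 to 82.2 CPM in 4 controls and 47.9 to 64.8 CPM in 3 iNICD, without overlap, and with low Xist it was 37.7 to 42.9 CPM in 2 controls and 30.9 to 39.5 CPM in 3 iNICD, with overlap. Every library with high Xist was above every library with low Xist. The shares of all genes tested without overlap in these splits were not counted. With log2 Xist as a covariate the value was -0.33 (limma adjusted p = 0.0549). With the replicate number as block Pcx was called lower (limma adjusted p = 0.0321). Pcx shares 3883 bases with Lrfn4 on the other strand, which was at 12.2 CPM on average. The summed level of the white adipocyte markers (Adipoq, Plin1, Cidec, Cfd, Retn and Lep) was 28.8 to 161 CPM in controls and 30.2 to 328 CPM in iNICD, highest in control 3 and iNICD 2, and its part in the Pcx level was not tested.

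**Figure D3:**
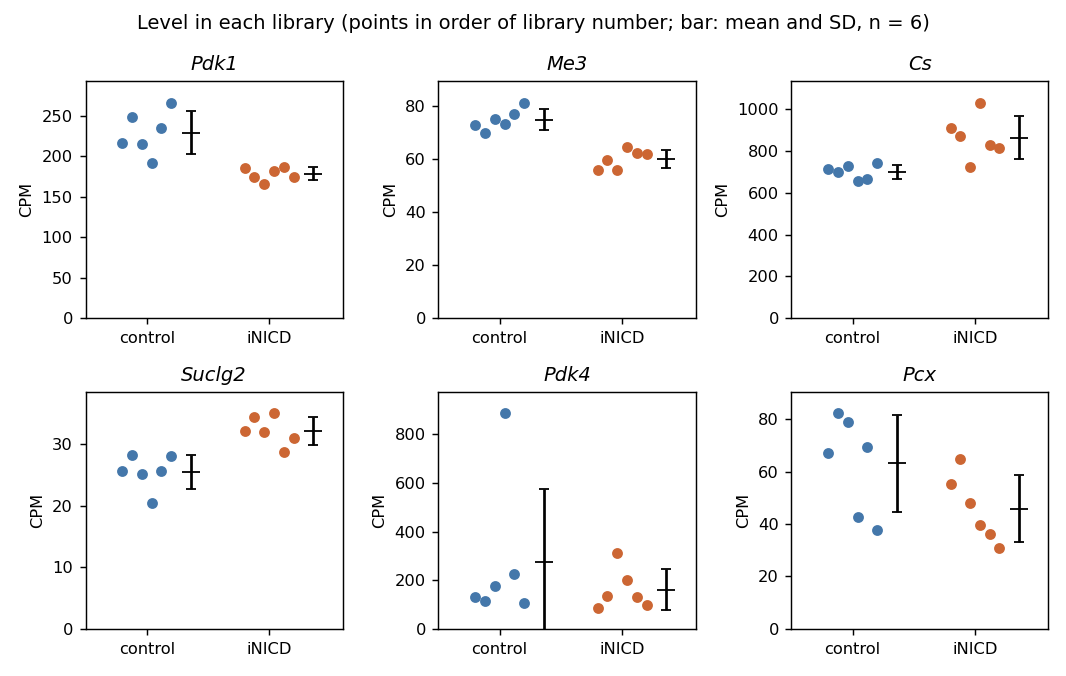
CPM (vertical axis, from 0) of Pdk1, Me3, Cs, Suclg2, Pdk4 and Pcx in the 6 control and 6 iNICD libraries, points in order of library number, with the mean and SD beside each group. The groups are apart for Pdk1, Me3 and Suclg2, Cs overlaps through 1 iNICD library at 725 CPM, and in Pdk4 control 4 stands at 886 CPM above the other 11 libraries and the lower SD bar of the controls is cut at 0.

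Acly, which splits citrate exported to the cytosol into acetyl-CoA for lipid synthesis, differed between the same libraries. It was at 75.0, 97.7 and 120 CPM in controls and 77.1, 85.6 and 104 CPM in iNICD (log2 fold change -0.11, 95% interval -0.37 to 0.14). The libraries with high Xist were at 88.9 to 120 CPM and those with low Xist at 75.0 to 82.3 CPM. The mitochondrial citrate carrier Slc25a1 is not among the 37 and was chosen after its values were seen. It was at 20.3 to 30.3 CPM with high Xist and 15.2 to 18.8 CPM with low Xist. Pcx and Acly were the members whose levels did not overlap between libraries with high and with low Xist. The share of all genes tested without such overlap was not counted, so this is not a result about these members. Pdk1, Me3 and Suclg2 did not overlap between the groups, so any split of the libraries had to keep their direction. Of the 4 called members only Cs could have turned, and it did not. The log2 differences within the high and the low Xist libraries were -0.38 and -0.32 for Pdk1, -0.36 and -0.29 for Me3, 0.24 and 0.35 for Cs and 0.32 and 0.39 for Suclg2.

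The 4 members of the malate-aspartate shuttle held no gene called by limma, edgeR or DESeq2, and 1 of them, Got2, had an unadjusted limma p under 0.05. The shuttle also uses the aspartate-glutamate carriers Slc25a12 and Slc25a13, which are not among the 37 and were not called. Slc25a13 was at 21.3 to 51.1 CPM in controls and 41.0 to 55.2 CPM in iNICD (log2 fold change 0.51, 95% interval 0.16 to 0.85, limma adjusted p = 0.08). Slc25a12 was at 200 to 219 and 208 to 254 CPM (0.15, limma adjusted p = 0.21). The cytosolic malate dehydrogenase Mdh1 was at 1093, 1251 and 1377 CPM in controls and 1131, 1252 and 1676 CPM in iNICD (log2 fold change 0.05, 95% interval -0.17 to 0.26). The cytosolic aspartate aminotransferase Got1 was at 312 to 384 and 313 to 401 CPM (0.00, -0.17 to 0.17), and the oxoglutarate carrier Slc25a11 at 215 to 260 and 187 to 269 CPM (-0.11, -0.29 to 0.07). Got2, the mitochondrial aminotransferase, was at 203, 219 and 233 CPM in controls and 218, 240 and 282 CPM in iNICD, with 5 of 6 iNICD libraries above the control median (0.15, limma adjusted p = 0.26, exact permutation p = 0.026). Mdh1 had the highest level per kb of exon of all 37 genes, at 484 CPM per kb in controls, followed by Idh2 at 343 and Ogdh at 277, and the lowest was Me2 at 2.91 CPM per kb.

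Single libraries moved many of these genes together. In iNICD 4, 24 of the 37 members were at the highest level of the 6 iNICD libraries (64.9%), where the same library held the highest value in 14.7% of all genes tested. The median member in iNICD 4 was 0.26 above the median of the other 5 iNICD libraries on the log2 scale, beside -0.07 for all genes tested. In iNICD 3, one of the libraries rich in Gm42418, 23 members were at the lowest level of the group (62.2%, beside 17.5% of all genes tested), and the median member was 0.17 below the other 5. Control 6 was highest among the controls in 17 members (45.9%, beside 21.6% of all genes tested) and control 4 lowest in 14 (37.8%, beside 44.4%). Without iNICD 4 limma called Pdk1, Me3 and Ogdh lower and no member higher. The median coefficient of variation of the members was 9.54% in controls and 12.4% in iNICD.

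**Figure D4:**
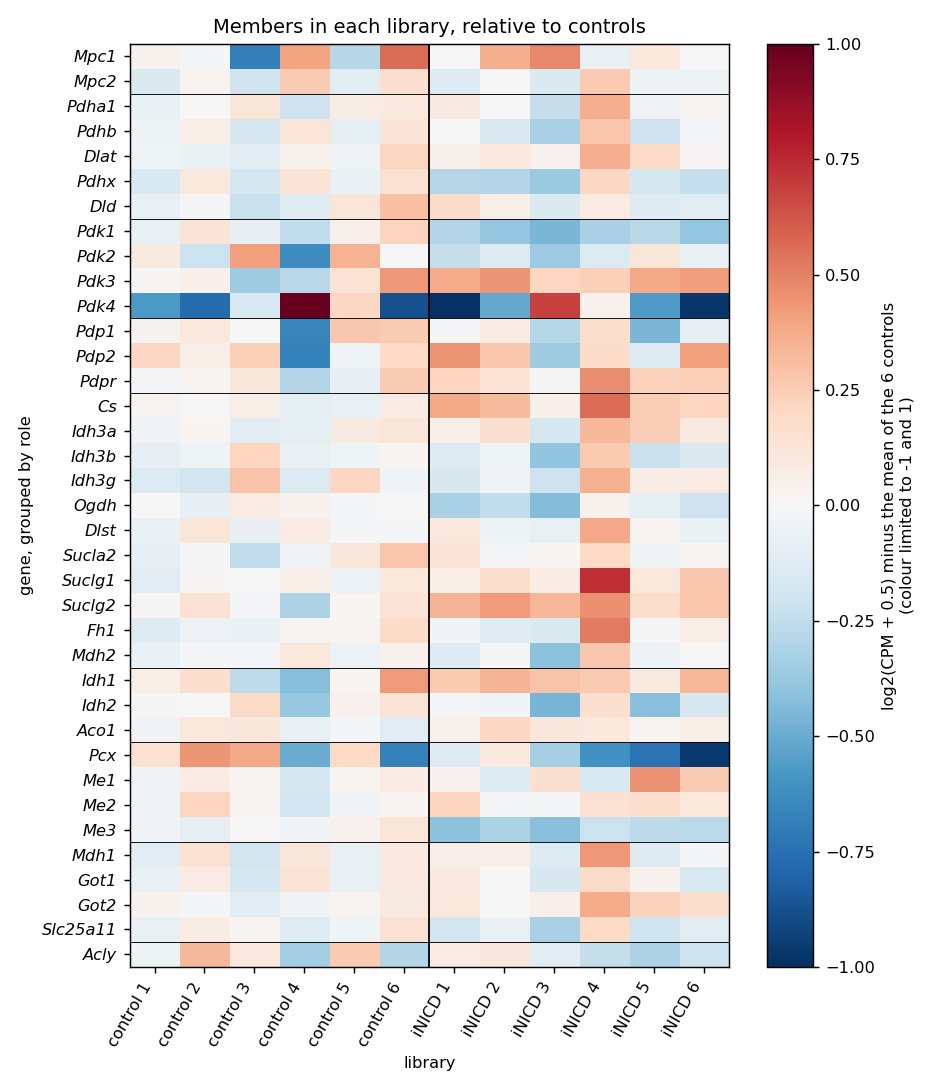
Log2(CPM + 0.5) of the 37 genes (rows, grouped by role) in the 12 libraries (columns), minus the mean of the 6 controls, with red for higher and blue for lower and the colour limited to -1 and 1. The column of iNICD 4 is red in most rows, with 24 genes at the highest level of the iNICD libraries, and Pdk4 in control 4 is at the red limit of the scale.

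The genes around these steps were taken from 11 lists of 74 genes in all, each of which was high enough to test. The lists were chosen with earlier results of these data known, so their counts of calls beside the shares of all genes are a description and not a test. In these lists 4 genes were called higher and 8 lower, beside 4.87% and 1.84% of all genes tested, with a median log2 fold change of -0.053 beside 0.045. Genes called lower over all numbered 264 in this fit, 384 with median-of-ratios scaling and 587 with DESeq2. The 7 genes of aconitase and succinate dehydrogenase, which complete the cycle, had log2 fold changes of -0.10 to 0.11, none with an unadjusted limma p under 0.05 and none called by edgeR or DESeq2. The 5 genes of lipoate synthesis, the cofactor of the dehydrogenase complexes (-0.19 to 0.11), and the 3 mitochondrial sirtuins (-0.05 to 0.05) likewise had no unadjusted limma p under 0.05 and no call by edgeR or DESeq2. Of 6 genes of branched-chain keto acid oxidation none was called by limma, edgeR or DESeq2 or had an unadjusted limma p under 0.05, and of 5 genes of glutamate and glutamine entry none was called by limma or edgeR, 4 had an unadjusted limma p under 0.05, and DESeq2 called Glul and Gpt lower.

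Other fuels that enter as acetyl-CoA or pyruvate had 3 called genes of 8, each lower in iNICD, beside 1.84% of all genes tested that were called lower. Acss1, which activates acetate in mitochondria, was at 203 to 251 CPM in controls and 137 to 192 CPM in iNICD (log2 fold change -0.51, limma adjusted p = 0.0016). Oxct1, which activates ketone bodies, was at 410 to 463 and 296 to 403 CPM (-0.34, limma adjusted p = 0.017). Neither gene's groups overlapped. Ldhd, the mitochondrial D-lactate dehydrogenase, was at 21.6 to 34.3 and 15.2 to 24.7 CPM (-0.72, limma adjusted p = 0.0026), and the overlap came from control 4 at 21.6 CPM and iNICD 4 at 24.7 CPM. Ldha (-0.37) and Ldhb (-0.09), the main lactate dehydrogenase subunits, did not pass, and DESeq2 called Ldha lower. In the fit of 9 libraries without those rich in Gm42418, Oxct1 was at -0.31 and Ldhd at -0.61, and neither was called (limma adjusted p = 0.115 and 0.0532).

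The mitochondrial carboxykinase Pck2, which makes phosphoenolpyruvate from oxaloacetate, rose without overlap, from a mean of 18.0 ± 3.28 CPM to one of 37.8 ± 9.03 (SD, n = 6). Its log2 fold change was 1.04 (limma adjusted p = 0.001). Its cytosolic counterpart Pck1 varied from 3.37 to 50.9 CPM among the libraries and was not called (-0.36). Of 8 metabolite carriers Slc25a4, the ADP/ATP carrier of heart and muscle, fell, from 2982 to 3695 CPM in controls to 2268 to 3504 CPM in iNICD (log2 fold change -0.40, limma adjusted p = 0.023). That call was lost with quantile normalization, without any one of controls 2 and 3 and iNICD 1 and 3 (limma adjusted p up to 0.065) and without the 3 libraries rich in Gm42418 (0.193). DESeq2 also called the glutamate carrier Slc25a22 lower. Unadjusted limma p was under 0.05 for 5 of the 8 carriers, beside 18.8% of all genes tested. Of these, Slc25a3, Slc25a4 and Slc25a22 were lower in iNICD and Slc25a12 and Slc25a13 higher.

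Among 12 transcriptional regulators 2 were called higher, beside 4.87% of all genes tested. The coactivator Ppargc1b was at 16.9 to 28.2 CPM in controls and 27.6 to 37.9 CPM in iNICD (log2 fold change 0.61, limma adjusted p = 0.0036), where control 3 made the overlap. Tfam, which packages and transcribes mitochondrial DNA, was at 26.6 to 37.01 and 37.7 to 49.6 CPM, without overlap (0.44, limma adjusted p = 0.010). Ppargc1a, the related coactivator, was at 62.9 to 108 CPM in controls and 53.2 to 79.2 CPM in iNICD, with a log2 fold change of -0.44 that did not pass (limma adjusted p = 0.054) and that edgeR and DESeq2 called lower. Esrra (-0.03), Esrrg (0.11) and Ppara (-0.18), nuclear receptors that drive mitochondrial and fatty acid genes, did not pass. Of 10 PPAR-responsive genes 1 was called higher and 1 lower, beside the same 4.87% and 1.84%. Cpt1b, which admits long-chain fatty acids to mitochondria in muscle, was at 14.8 to 20.8 CPM in controls and 31.5 to 60.01 CPM in iNICD (log2 fold change 1.12, limma adjusted p = 0.00015), and the uncoupling protein Ucp2 at 186 to 284 and 119 to 188 CPM (-0.66, limma adjusted p = 0.0034). Cpt1a, in the same list, was at 84.6 to 135 and 86.6 to 132 CPM and was not called (0.07). Overlapping genes were looked up for the members only, so whether the Cpt1b values miss reads was not tested.

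Of 8 hypoxia-responsive genes, a class to which Pdk1 also belongs, 3 were called lower and 0 higher by limma, edgeR and DESeq2, beside 1.84% and 4.87% of all genes tested in the limma fit. As this list was chosen with earlier results known, the count is not a test, and a link to the Pdk1 level was not tested. Egln3, an oxygen sensor, was at 16.5 to 27.1 CPM in controls and 8.64 to 14.9 CPM in iNICD (log2 fold change -0.90, limma adjusted p = 0.0012), and the growth factor gene Vegfa at 240 to 303 and 169 to 200 CPM (-0.54, limma adjusted p = 0.00044), both without overlap between the groups. Hk2, a hexokinase, was at 247 to 363 CPM in controls and 189 to 259 CPM in iNICD (log2 fold change -0.37, limma adjusted p = 0.042), a call that remained for 4 of the 12 single libraries left out (limma adjusted p from 0.029 to 0.099) and was lost without the 3 libraries rich in Gm42418 (0.29). The other 5 did not pass, with Slc2a1 at -0.18, Bnip3 at -0.20, Car9 at -0.41, Adm at 0.11 and Ankrd37 at 0.34.

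**Figure D5:**
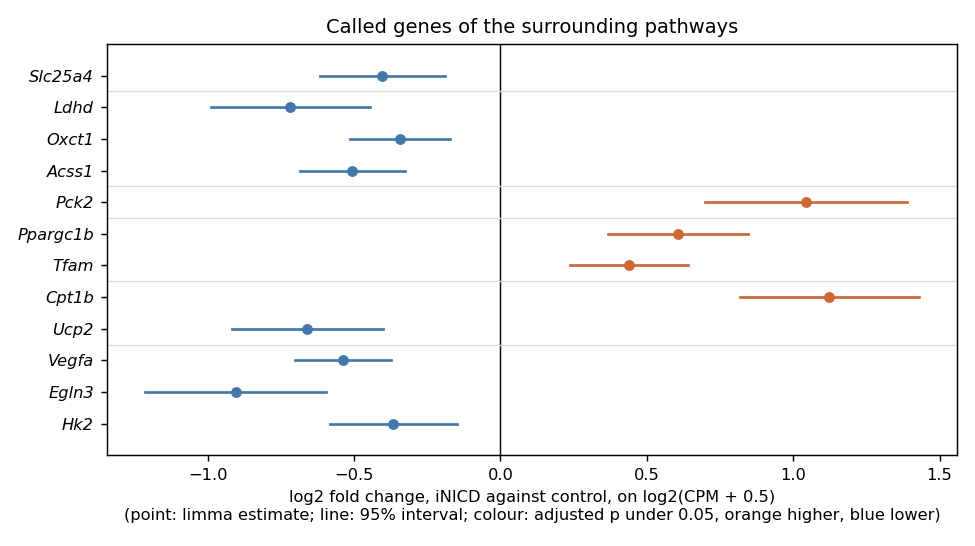
Log2 fold change of the 12 called genes of the surrounding lists, iNICD against control, on the log2(CPM + 0.5) scale, with points for the limma estimate and lines for its 95% interval. Pck2, Ppargc1b, Tfam and Cpt1b lie above 0 and the other 8 below it.

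Markers of other cell types were read beside these values. The summed level of 6 cardiomyocyte markers was 149576 to 155988 CPM in controls and 129342 to 145226 CPM in iNICD, and 0 of the 6 passed the limma test, with an unadjusted p under 0.05 for Tnnt2, Actc1, Tnni3 and Ttn, each with a negative log2 fold change (-0.44 to -0.19). The 4 macrophage markers summed to 126 to 206 CPM in controls and 224 to 296 CPM in iNICD, and 3 of them rose. Fibroblast markers summed to 1081 to 1319 and 1226 to 1540 CPM, and of these 4 Tcf21 rose (log2 fold change 0.25, limma adjusted p = 0.048). Endothelial markers summed to 561 to 772 and 541 to 638 CPM, and brown adipocyte markers to 19.0 to 47.0 and 19.4 to 47.2 CPM, with Elovl3 at or near 0. Smooth muscle markers summed to 240 to 682 CPM in controls and 227 to 582 CPM in iNICD, ventricular markers to 542 to 2960 and 513 to 2477 CPM with Irx4 at or near 0, and erythroid markers to 54.7 to 312 and 30.0 to 122 CPM, with none called in these lists by limma. Skeletal muscle markers summed to 788 to 1106 and 401 to 725 CPM, nearly all of it Ckm, which fell and which heart muscle also expresses, while Myh4 and Myh1 were near 0. Lymphocyte markers were low, at 0.944 to 2.29 and 2.06 to 5.09 CPM, with Trac higher in iNICD, and neuron and Schwann cell markers summed to 11.4 to 14.8 and 7.40 to 12.6 CPM. Their part in the results above was not tested, and in whole atria fewer cells of a type and less RNA per cell cannot be told apart.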

How the data were processed

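Right atrial RNA of 12 libraries (6 control, 6 iNICD) was used as the CPM that the authors deposited, in which each value is a read count divided by the reads assigned to genes. Per the submitters' processing notes, the tools were STAR 2.4.0b and featureCounts. No source used here gives the build, the annotation, the strand setting or how multiply aligned reads were treated, so near-identical copies could share reads. The table repeats 574 identifiers with equal values, which entered 1 time. All values above 0 were whole multiples of the smallest one (tolerance 0.001, 100% of values), so reads could be recovered.

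CPM were tested with limma 3.58.1 (trend, robust) in R 4.3.3 on log2(CPM + 0.5), for the 14336 genes that reached 1 CPM in 6 libraries. Fold changes are on that scale and understate those of low genes. The Benjamini-Hochberg adjustment covered all tested genes (threshold 0.05), and errors are SE of the fit. For single genes, mean log2 values were compared by exact permutation, two-sided (scipy 1.17.1). Recovered reads were tested with edgeR 4.0.16 and DESeq2 1.42.0 as alternatives, and limma was tested on simulated data. Exon lengths (union of exons) and positions came from GENCODE M21 (GRCm38), in which all 37 members were matched by identifier, and the authors' annotation may differ. A union of exons can be longer than the transcript present, and levels and shares per kb depend on it. Further settings were other pseudocounts (0.1 and 2), a filter on a mean of 5 CPM or none, median-of-ratios and quantile scaling, log2 Xist as covariate, the replicate number as block, and libraries left out. The split by Xist and the search for GCGTG were chosen after seeing the data. The members and lists were chosen with earlier results of these data known. By the naming rule every member is given by role, with full statistics for those called or without overlap between groups, every called gene of the surrounding lists is named, and marker lists are given by summed CPM. Other genes named were chosen after their values were seen.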

Additional observations from a re-analysis of the deposited data

Results flagged for a closer look

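Dixon's criterion marks a value far from the others of its group, and with normal values chance meets it in about 1 group in 20. It was applied to 98 groups of 6 libraries (49 genes, members and called genes of the surrounding lists). These groups hold CPM without a log and share the same libraries, so they are not independent and the count is not a test. In them, 15 values lay far from the other 5 of their group. Of these, 8 were high values in iNICD 4, namely Mpc2 at 118 CPM (others 89.3 to 98.5), Pdhx at 110 (73.9 to 84.5), Dlst at 537 (392 to 444), Suclg1 at 334 (211 to 243), Fh1 at 422 (266 to 308), Mdh1 at 1676 (1131 to 1298), Slc25a4 at 3504 (2268 to 2731) and Ldhd at 24.7 (15.2 to 18.8). In control 4, Pdk4 was high at 886 CPM (others 106 to 225), and Pdp1 at 25.5 (40.3 to 48.8), Ldhd at 21.6 (29.7 to 34.3) and Pck2 at 11.5 (17.9 to 20.1) were low. In control 3, Idh3b was high at 396 CPM (323 to 348) and Ppargc1b at 28.2 (16.9 to 20.2). Idh1 was low in iNICD 5 at 34.2 CPM (38.5 to 40.7).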

How the results depend on the processing

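Members called higher numbered 2 in the fit reported and 1 without a filter, with median-of-ratios scaling, with quantile normalization, with edgeR and without the 3 libraries rich in Gm42418, where members called lower numbered 0 instead of 2. That fit used 9 libraries and called 360 genes higher and 140 lower, beside 698 and 264. Genes called lower over all were 407 with quantile normalization and 587 with DESeq2. With 1 library left out, members called higher ranged from 0 to 3 and lower from 2 to 3, and all genes from 430 to 779 higher and 183 to 429 lower. The replicate block gave 1 member higher (Pdk3) and 3 lower (Me3, Pcx and Pdk1), with 794 and 297 genes over all. With it, limma adjusted p was 0.0825 for Cs, 0.055 for Suclg2 and 0.0321 for Pcx. Libraries of the same number correlated in their deviations at r = -0.01 to 0.32, and 6 of 12 had their own number as best partner. Libraries numbered 1, 4 and 6 were best partners in both directions. The labels do not say that the numbers pair the samples and these values do not settle it, so the block stands as an alternative. The signs of some members that were not called turned. The log2 fold changes were with median-of-ratios scaling -0.0353 (Idh3g), -0.0031 (Dlst), -0.0089 (Mdh1), -0.0533 (Got1), -0.0077 (Fh1) and -0.0165 (Pdha1), with quantile normalization -0.0039 (Idh3g), -0.0353 (Got1) and -0.0024 (Fh1), with edgeR -0.0296 (Idh3g), -4e-04 (Mdh1), -0.0022 (Sucla2), -0.0524 (Got1) and -0.0049 (Pdha1), with DESeq2 -0.0305 (Idh3g), -0.0015 (Mdh1), -0.0035 (Sucla2), -0.0535 (Got1) and -0.0057 (Pdha1), with the Xist covariate -0.0143 (Got1) and without the 3 libraries 0.0297 (Mdh2), 0.0082 (Dld), -0.063 (Mpc1), 0.028 (Idh3b), 0.0245 (Idh2) and 0.0352 (Pdp1). With 1 library left out, the ranges were -0.0543 to 0.0495 (Dld), -0.0138 to 0.0766 (Dlst), -0.0477 to 0.0855 (Fh1), -0.0378 to 0.0335 (Got1), -0.048 to 0.0763 (Idh3g), -0.0326 to 0.0809 (Mdh1), -0.1214 to 0.0143 (Mdh2), -0.0757 to 0.0316 (Mpc2), -0.0275 to 0.0909 (Pdha1) and -0.6379 to 0.0174 (Pdk4). The causes were not tested. Of the members' other results under settings that left out no single library, 370 kept sign and side of the threshold, 9 lost the call and 2 gained it. No called gene of the surrounding lists changed sign under these settings.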
